A study of Mus musculus with 2 samples.

Results

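The Cyp3a family of the mouse was examined in mature hepatocytes (MHs) and small hepatocytes (SHs). Its members were the gene symbols made of Cyp3a, a number and at most 1 further letter, which gave 9 of the 43280 gene symbols counted, namely Cyp3a11, Cyp3a13, Cyp3a16, Cyp3a25, Cyp3a41a, Cyp3a41b, Cyp3a44, Cyp3a57 and Cyp3a59. All 9 reached the minimum of 10 reads in the libraries together. Per the labels, MHs and SHs were freshly isolated by collagenase perfusion from the livers of the same C57BL6 mice, whose age is given as 20 weeks, and neither group carried an engineered allele or received a treatment according to them. The methods give a younger age for the mice of the study and mention animals of both sexes. Neither source gives the sex of the mice behind these libraries, and the methods say that the cells came from several healthy adult mice and that 1 set of cells was sequenced, without stating whether mice were pooled. Per the methods, Percoll centrifugation removed dead cells from both preparations, and no sorting of MHs is described. SHs, which the labels describe as intrinsic progenitors of hepatocytes, were then isolated by FACS as CD31-, CD45-, EpCAM- and ICAM-1+ cells. Poly(A) RNA of 1 library of each was sequenced on an Ion Proton system.

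CYP3A enzymes are cytochrome P450 monooxygenases of the endoplasmic reticulum. They hold a haem group bound through a cysteine, receive electrons from P450 oxidoreductase with help from cytochrome b5, and oxidise many drugs, steroids and bile acids in the liver and the intestine. Their genes are induced through the nuclear receptors PXR and CAR, which bind DNA as heterodimers with RXR at repeats of a short hexamer, and human CYP3A4 is the best known member of the subfamily. In the liver lobule, much of the P450 system is expressed more strongly around the central vein than around the portal tract.

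All 9 genes lie on mouse chromosome 5 of mm10 and have 13 exons each in the longest annotated transcript. Cyp3a13 lies by itself at chr5:137892932-137921619 on the minus strand. The other 8 lie together between 145345279 and 146113287, and no further counted gene lay within that span. How the deposited counts treated reads that match several symbols was not given, so the likeness of the members bears on what a single count means. Their coding sequences fell into 2 groups of close relatives and 1 gene apart. Cyp3a11, Cyp3a16, Cyp3a41a, Cyp3a41b and Cyp3a44 were 92.4% to 99.9% identical to each other. Cyp3a25, Cyp3a57 and Cyp3a59 were 93.9% to 97.5% identical to each other. Between these groups identity was 74.2% to 75.9%, and Cyp3a13 was 74.7% to 76.5% identical to any other member. Cyp3a41a and Cyp3a41b differed at 2 of 1512 coding bases.

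The 60 coding bases around the codon of the haem-binding cysteine lie within exon 12 in every member and were compared with those of Cyp3a11. They are printed 5′ to 3′ on the coding strand from the GENCODE transcripts, with capitals at bases unlike those of Cyp3a11. In Cyp3a11 they lie at chr5:145858790-145858849 of mm10, on the minus strand.
Cyp3a11: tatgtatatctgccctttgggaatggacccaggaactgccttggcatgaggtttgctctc
Cyp3a41a: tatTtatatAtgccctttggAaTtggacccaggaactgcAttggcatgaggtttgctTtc
Cyp3a44: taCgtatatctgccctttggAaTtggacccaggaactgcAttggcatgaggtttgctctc
Cyp3a25: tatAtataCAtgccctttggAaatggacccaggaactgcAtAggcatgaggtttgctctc
Cyp3a59: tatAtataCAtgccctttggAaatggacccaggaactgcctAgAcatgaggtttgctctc
Cyp3a13: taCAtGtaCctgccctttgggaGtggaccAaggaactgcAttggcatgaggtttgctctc
Cyp3a41b had the same 60 bases as Cyp3a41a. Cyp3a16, which is not printed, differed from Cyp3a11 at 1 of the 60 bases, Cyp3a44 at 4, Cyp3a57 at 5, Cyp3a41a, Cyp3a25 and Cyp3a59 at 6 each, and Cyp3a13 at 7.

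Over whole transcripts, the share of 100-base stretches that occurred without a mismatch in another Cyp3a transcript was 90.8% for Cyp3a41a and 88.2% for Cyp3a41b. It was 6.05% for Cyp3a25, 5.61% for Cyp3a59 and 5.37% for Cyp3a44, at most 0.312% for Cyp3a11 and Cyp3a16, and 0% for Cyp3a13 and Cyp3a57. Most reads of that length from Cyp3a41a and Cyp3a41b would not be told apart, and their single counts are uncertain. With up to 2 mismatches allowed, 24.9% of the stretches of Cyp3a11, 46.4% of those of Cyp3a25 and 45.9% of those of Cyp3a59 occurred in another Cyp3a transcript. These shares counted any annotated transcript of another gene named Cyp3a, also beyond the 9 transcripts compared in pairs. No 100-base stretch of 1 coding group occurred in the other group or in Cyp3a13 at that tolerance. Counts summed within a group are thus less exposed to how reads were divided. A read counted on several members would enter such a sum more than once. With 50-base stretches, more was shared. Without a mismatch, the share found in another Cyp3a transcript was 14.8% for Cyp3a11, 10.7% for Cyp3a16, 26.8% for Cyp3a25 and 26.5% for Cyp3a44. It was 8.88% for Cyp3a57, 28.0% for Cyp3a59 and at least 93.5% for Cyp3a41a and Cyp3a41b. With up to 2 mismatches it was 56.2% for Cyp3a11, 84.1% for Cyp3a25 and 0.138% for Cyp3a13. At that length and tolerance, stretches shared between a coding group and the other group or Cyp3a13 made up at most 0.357% of those of a member, for any single pair of genes. The methods describe an alignment that allowed a few mismatches and let a read have several hits up to a maximum. How reads with several hits entered the deposited counts, and the read length, were not given in the sources used here.

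**Figure D1:**
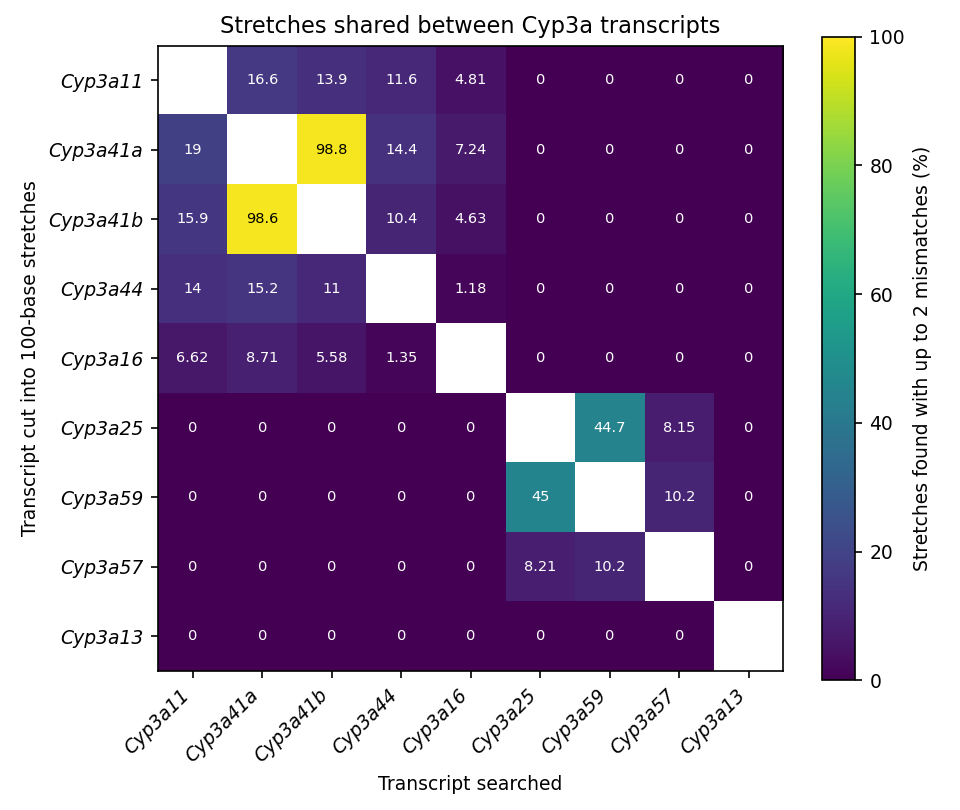
Share of the 100-base stretches of each Cyp3a transcript (rows) found in each other Cyp3a transcript (columns) with up to 2 mismatches, in percent, with the diagonal left blank. Cyp3a41a and Cyp3a41b shared 98.8% and 98.6% of their stretches with each other, and no stretch was shared between the group of Cyp3a11, the group of Cyp3a25 and Cyp3a13.

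The sequence before the transcription start was also grouped. All 9 members were found in the promoter table. The 250 bases before the RefSeq start (GRCm38.p6) are printed for 5 of them, from both coding groups and Cyp3a13. Capitals mark AGGTCA and AGTTCA, hexamers of the kind that nuclear receptors bind, read on either strand, so that TGACCT and TGAACT are marked too.
Cyp3a11, chr5:145879855-145880104, minus strand: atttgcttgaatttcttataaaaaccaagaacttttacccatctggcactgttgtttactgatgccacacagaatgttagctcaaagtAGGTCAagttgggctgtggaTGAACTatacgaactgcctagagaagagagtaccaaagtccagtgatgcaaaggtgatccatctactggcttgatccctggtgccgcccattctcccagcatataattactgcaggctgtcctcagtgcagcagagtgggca
Cyp3a44, chr5:145805875-145806124, minus strand: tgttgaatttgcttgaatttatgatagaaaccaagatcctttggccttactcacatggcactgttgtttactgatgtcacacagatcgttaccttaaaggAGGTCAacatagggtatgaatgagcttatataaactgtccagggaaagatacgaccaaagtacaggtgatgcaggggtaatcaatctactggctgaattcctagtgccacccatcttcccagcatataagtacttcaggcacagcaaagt
Cyp3a25, chr5:146009619-146009868, minus strand: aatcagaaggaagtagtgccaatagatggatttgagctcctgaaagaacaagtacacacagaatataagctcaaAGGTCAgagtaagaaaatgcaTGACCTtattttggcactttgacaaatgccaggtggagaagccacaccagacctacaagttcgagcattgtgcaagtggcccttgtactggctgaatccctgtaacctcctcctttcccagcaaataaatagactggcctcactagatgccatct
Cyp3a57, chr5:145345019-145345268, plus strand: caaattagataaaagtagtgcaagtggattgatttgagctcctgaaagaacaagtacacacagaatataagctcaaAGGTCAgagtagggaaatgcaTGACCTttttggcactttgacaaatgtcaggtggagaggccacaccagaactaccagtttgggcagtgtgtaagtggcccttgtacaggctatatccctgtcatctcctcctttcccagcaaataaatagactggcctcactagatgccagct
Cyp3a13, chr5:137921620-137921869, minus strand: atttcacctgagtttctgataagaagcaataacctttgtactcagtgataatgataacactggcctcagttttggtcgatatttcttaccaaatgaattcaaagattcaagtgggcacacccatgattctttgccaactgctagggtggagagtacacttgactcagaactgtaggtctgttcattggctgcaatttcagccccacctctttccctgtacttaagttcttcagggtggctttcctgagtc
AGGTCA occurred in 5 of the 9 members, against 14.0% of 32817 mouse promoter windows of the same length, and AGTTCA in 3 of the 9, against 11.9%. Members with closely related promoters, such as Cyp3a41a and Cyp3a41b (99.6% identical), are not separate occurrences in these counts. Cyp3a25, Cyp3a57 and Cyp3a59 each had an AGGTCA followed by a TGACCT after 15 bases, the first beginning 176, 174 and 177 bases before the start, respectively. An AGGTCA with a TGACCT anywhere downstream of it occurred in 0.302% of all windows. These 3 promoters were 88.9% to 94.8% identical to each other, so the pairs lie in closely related sequence and are not separate occurrences. Cyp3a11 had 1 AGGTCA, beginning 162 bases before the start, and an AGTTCA on the opposite strand downstream of it. The GENCODE span of Cyp3a11 reaches 145879964 and so overlaps part of this window, and these positions hold for the RefSeq start only. Cyp3a44 had 1 AGGTCA, Cyp3a41a and Cyp3a41b had 1 AGTTCA each, and Cyp3a13 and Cyp3a16 had neither hexamer in this window. The hexamers are a description of the letters, and whether any of them is bound was not measured.

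Counted reads came to 16979136 for MHs and 42356444 for SHs, so a floor of 3 reads stood at 0.177 reads per 1000000 counted reads (RPM) in MHs and 0.0708 in SHs. With 1 library of each, these data allowed no replicate check and no test between conditions, and every interval below is an exact 95% interval that covers counting error only. The reads carried no molecular identifiers, so copies of 1 molecule could not be told from separate molecules, and the intervals take no account of such copies. The methods state that quantitative PCR followed up the sequencing results, and those measurements are not part of these data. The label of hepatocytes was met in both libraries, where the 9 hepatocyte markers analysed, among them Alb, Ttr and Apob, took 89450 RPM in MHs and 91950 in SHs. Endothelial, macrophage and stellate cell markers were lower in the sorted SHs. The 10 endothelial markers summed to 90.8 RPM in MHs and 4.65 in SHs, the 8 macrophage markers analysed to 21.1 and 0.637, and the 10 stellate cell markers to 21.2 and 2.31. Among them Lyve1 and Marco had 0 reads in SHs. The 7 lymphocyte markers had 11 and 7 reads in all, with Cd3e, Cd3g and Ms4a1 at 0 in both libraries. The 7 cholangiocyte markers summed to 13.9 and 14.4 RPM, with Cldn4 at 0 in both. Of the 3 with at least 10 reads, Sox9 was called higher (92 and 325 reads), beside 7.36% of all genes. Spp1 was called lower (136 and 271 reads), beside 9.58%. Of the genes of the sorting markers, Pecam1 (CD31) had 73 and 8 reads, Ptprc (CD45) 9 and 5, and Epcam 6 and 1. Icam1, the gene of the marker SHs were selected for, was not higher in SHs, with 7.66 and 6.52 RPM and an interval of its log2 ratio from -0.54 to 0.08.

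Cyp3a transcripts were abundant in both libraries and took a smaller share of the reads in SHs. The 9 genes summed to 76555 reads in MHs, 0.451% of all counted reads (0.448% to 0.454%), and to 144849 reads in SHs, 0.342% (0.340% to 0.344%). The family sum was thus 24.2% lower in SHs, a log2 ratio of SHs over MHs of -0.40 (-0.41 to -0.39). The median log2 ratio of the 15521 genes at that minimum of 10 reads was 0.02, with 50% of them between -0.22 and 0.21. RPM is a share of the RNA sequenced, so fewer cells that express a gene and less of its RNA per cell cannot be told apart here.

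All 9 members had a lower RPM in SHs, with a median log2 ratio of -0.31, and for 7 of them the interval lay wholly under 0, as it did for 15.5% of all genes with at least 10 reads. That count also depends on depth, since deep genes have narrow intervals. A gene was called lower when it was at least 20% lower in SHs and its interval lay wholly under 0, and called higher when it was at least 25% higher and its interval lay wholly above 0, which is the same fold in either direction. Cyp3a11, Cyp3a41a, Cyp3a41b and Cyp3a44 were called lower, which is 4 of 9 members against a background of 9.58% of all genes. No member was called higher, against a background of 7.36%. At a fold of 1.5, only Cyp3a41a was called lower, against 6.2% of all genes, and none higher, against 3.5%. At a fold of 2, none was called lower, against 4.46%, or higher, against 2.0%. All 4 members called lower belonged to the coding group of Cyp3a11, and reads counted on the wrong member of that group would bring their ratios closer. These calls can therefore not be taken as 4 separate occurrences beside the background. The part of such reads was not tested.

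**Figure D2:**
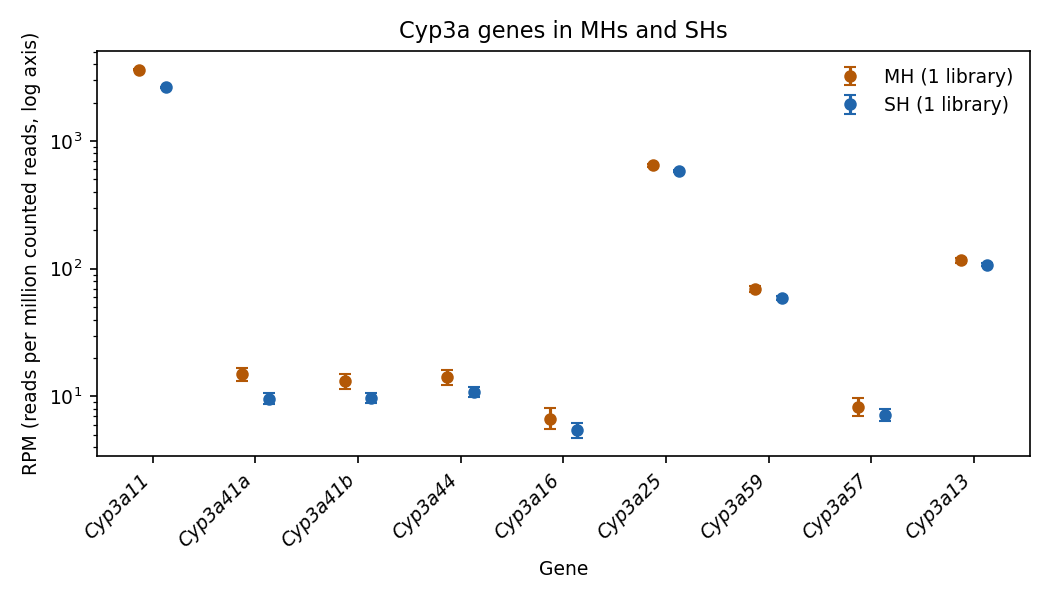
Level of each Cyp3a gene in the library of MHs and the library of SHs, in RPM on a log axis. Points are single libraries and bars are exact 95% intervals (counting error only), and levels between genes are not corrected for transcript length. Cyp3a11 stood at 3623 RPM in MHs and 2630 in SHs, and every gene had the lower point in SHs.

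Cyp3a11 (ENSMUSG00000056035.8, chr5:145854426-145879964, minus strand) is the major CYP3A enzyme of the adult mouse liver and is commonly used as a readout of PXR activity. Its reads numbered 61509 in MHs and 111388 in SHs, the deeper library, which were 3623 and 2630 RPM. Its log2 ratio was -0.46 (-0.48 to -0.45), or 27.4% lower in SHs. At the RPM of MHs, the depth of the SH library would have given about 153440 reads. Among all genes Cyp3a11 ranked 32nd by reads in MHs and 47th in SHs, and by reads it ranked first among the 98 Cyp genes in both libraries. Of the 5055 genes with 1000 reads or more in the libraries together, 2.81% had a lower ratio than Cyp3a11, and of all 15521 genes with at least 10 reads, many of them at low counts, 13.7% did.

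Because Cyp3a11 held most of the family's reads, it set the family sum. It took 80.3% of them in MHs (80.1% to 80.6%) and 76.9% in SHs (76.7% to 77.1%), and after division by transcript length 78.4% and 74.8%. Without Cyp3a11, the other 8 genes summed to 15046 reads in MHs and 33461 in SHs. Their log2 ratio was -0.17 (-0.19 to -0.14), or 10.9% lower. The log2 ratio of Cyp3a11 lay 0.30 under that of the other 8 together (interval of the difference -0.33 to -0.27).

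The 4 close relatives of Cyp3a11 were far less abundant, with log2 ratios from -0.63 to -0.31. In adult mouse liver, Cyp3a41 and Cyp3a44 are known as female-predominant genes, and Cyp3a16 as a gene of the fetal and neonatal liver. Cyp3a41a (chr5:145694049-145720136, minus strand) had 253 and 407 reads in MHs and SHs, which were 14.9 and 9.61 RPM, and a log2 ratio of -0.63 (-0.86 to -0.40). Cyp3a41b (chr5:145558664-145584730, minus strand) had 223 and 413 reads, or 13.1 and 9.75 RPM, a log2 ratio of -0.43 (-0.67 to -0.19). As these genes share nearly all their stretches, the sum depends less on how reads were divided between them. Cyp3a41a and Cyp3a41b together had 476 and 820 reads, a log2 ratio of -0.53 (-0.70 to -0.37). Cyp3a44 (chr5:145773983-145805874, minus strand) had 240 and 459 reads, or 14.1 and 10.8 RPM, a log2 ratio of -0.38 (-0.61 to -0.15). Cyp3a16 (chr5:145436309-145469723, minus strand) had 114 and 230 reads, or 6.71 and 5.43 RPM, and its interval, -0.64 to 0.03 around a log2 ratio of -0.31, included 0. At this depth a difference in Cyp3a16 alone was not detectable. The 4 genes summed to 830 and 1509 reads and had a log2 ratio of -0.46 (-0.58 to -0.33), beside -0.46 for Cyp3a11. In MHs each of the 4 had 1.85 to 4.11 reads per 1000 reads of Cyp3a11, and in SHs 2.06 to 4.12. A small share of Cyp3a11 reads counted on these genes would bring their ratio closer to that of Cyp3a11. The part of such reads was not tested, so this sum is not separate from Cyp3a11.

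Cyp3a25 and its relatives had log2 ratios closer to 0. Cyp3a25 (ENSMUSG00000029630.15, chr5:145977194-146009618, minus strand), the second most abundant member, had 10922 and 24613 reads in MHs and SHs, or 643 and 581 RPM. Its log2 ratio of -0.15 (-0.18 to -0.11) corresponds to 9.67% less in SHs. By reads it ranked 8th among the Cyp genes in both libraries, and its share of the family's reads was 14.3% in MHs (14.0% to 14.5%) and 17.0% in SHs (16.8% to 17.2%). Cyp3a59 (chr5:146079257-146113287, plus strand), 97.5% identical to Cyp3a25 in its coding bases, had 1179 and 2493 reads, or 69.4 and 58.9 RPM, a log2 ratio of -0.24 (-0.34 to -0.14). Cyp3a57 (chr5:145345279-145390926, plus strand) had 141 and 303 reads, or 8.30 and 7.15 RPM, and the interval of its log2 ratio of -0.22, -0.51 to 0.08, included 0. The 3 genes summed to 12242 and 27409 reads, a log2 ratio of -0.16 (-0.19 to -0.13). None of these 3 was called lower.

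Cyp3a13 (ENSMUSG00000029727.7), the member that lies apart on the chromosome and shared no 100-base stretch with another member, is also known from the intestine. It had 1974 and 4543 reads in MHs and SHs, or 116 and 107 RPM. Its log2 ratio of -0.12 (-0.19 to -0.04) was the smallest in size of the 9. A processed pseudogene on the same strand within the span of Cyp3a13, Gm15502, had 12 and 34 reads.

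**Figure D3:**
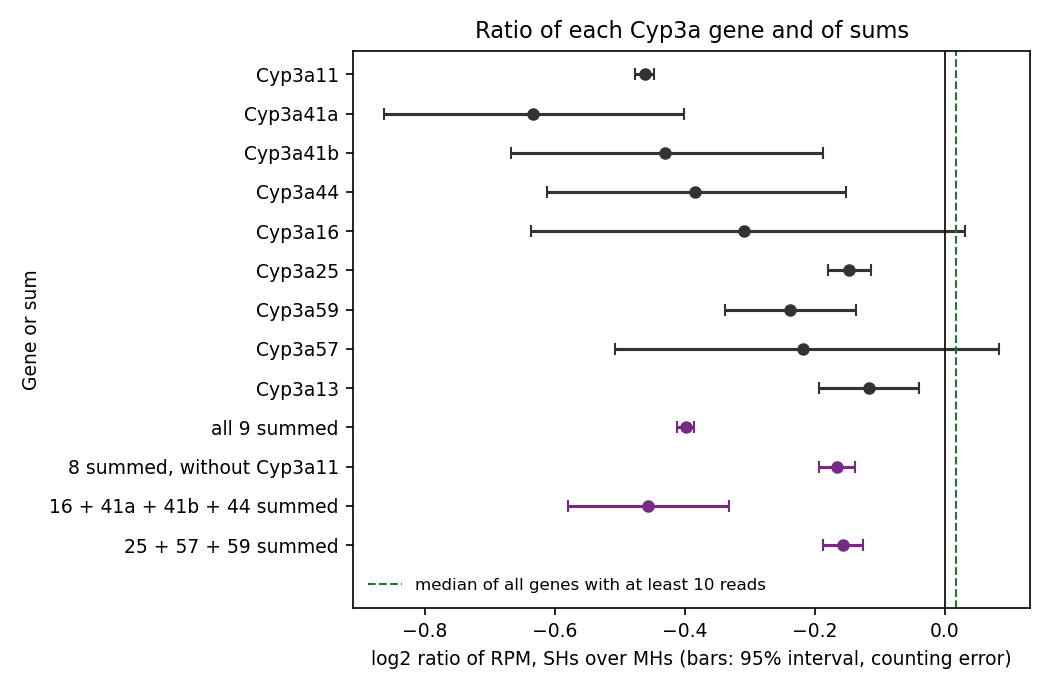
Log2 ratio of RPM in SHs over MHs for each Cyp3a gene (dark points) and for 4 sums of genes (purple points), with exact 95% intervals (counting error only). The solid line marks 0 and the dashed line the median of all genes with at least 10 reads, 0.02. Cyp3a11 and the sum of its 4 relatives lie at -0.46, and Cyp3a13, Cyp3a25 and the sum of Cyp3a25, Cyp3a57 and Cyp3a59 lie between -0.16 and -0.12.

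Differences between members were measured as the difference of their log2 ratios, with an exact conditional interval, over all 36 pairs. The interval excluded 0 for 11 pairs. Cyp3a11 fell more than Cyp3a13 by 0.35 on the log2 scale (0.27 to 0.42), more than Cyp3a25 by 0.32 (0.28 to 0.35) and more than Cyp3a59 by 0.22 (0.12 to 0.33). Its differences from Cyp3a16, Cyp3a41a, Cyp3a41b, Cyp3a44 and Cyp3a57 were within counting error, with the widest interval, that of Cyp3a16, running from -0.17 to 0.49. The other 8 pairs whose interval excluded 0 set Cyp3a41a, Cyp3a41b and Cyp3a44 against Cyp3a13 and Cyp3a25, and Cyp3a41a against Cyp3a57 and Cyp3a59. No such pair lay within a coding group, nor between Cyp3a13 and any of Cyp3a25, Cyp3a57 and Cyp3a59. The intervals cover counting error only, are not adjusted for the number of pairs, and say nothing of how other libraries of MHs or SHs would vary.

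Per length, the order of the abundant members was the same in both libraries. Cyp3a11 stood at 1546 RPM per kb of transcript in MHs and 1122 in SHs, Cyp3a25 at 322 and 291, Cyp3a13 at 39.3 and 36.3, and Cyp3a59 at 34.9 and 29.6. The remaining 5 genes lay between 3.88 and 7.23 RPM per kb in MHs and between 3.14 and 5.52 in SHs. Cyp3a41a, Cyp3a44 and Cyp3a41b overlapped in their counting intervals in both libraries, as did Cyp3a57 and Cyp3a16, so no order was read among them.

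The share of the Cyp3a family among P450 reads was close in both libraries. Its reads were 24.5% of all reads on Cyp genes in MHs (24.4% to 24.7%) and 24.7% in SHs (24.6% to 24.8%). The 89 other Cyp genes together had a log2 ratio of -0.41 (-0.42 to -0.41), beside -0.40 for Cyp3a. Their sum, 235554 reads in MHs and 441572 in SHs, includes Cyp2e1 with 38092 and 25675 reads and a log2 ratio of -1.89. Both this sum and the share thus depend on Cyp2e1, and neither was computed without it. Single subfamilies differed from Cyp3a. The Cyp2c genes, of which several metabolise drugs and arachidonic acid, had 36878 and 51219 reads in MHs and SHs, and their log2 ratio of -0.84 lay 0.45 under that of Cyp3a (interval of the difference -0.47 to -0.42). The Cyp4a genes, fatty acid hydroxylases, had 5825 and 10090 reads and a log2 ratio of -0.53, which lay 0.13 lower (-0.18 to -0.08). The Cyp2d genes had 56021 and 121024 reads and a log2 ratio of -0.21, which lay 0.19 higher (0.17 to 0.21).

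Of the 16 transcription factors and cofactors listed as acting on Cyp3a genes, 15 had at least 10 reads. Among these, 1 was called lower, beside 9.58% of all genes, and 0 higher, beside 7.36%, so the counts were near or under the background, and their median log2 ratio was 0.04. The gene called lower was Nr1i3, which encodes CAR, with 679 and 645 reads in MHs and SHs, or 40.0 and 15.2 RPM, and a log2 ratio of -1.39. Nr1i2, which encodes PXR, had 892 and 2530 reads, or 52.5 and 59.7 RPM, a log2 ratio of 0.18. Rxra, the partner of both, had a log2 ratio of 0.19, Hnf4a, a hepatocyte factor that acts on many P450 genes, 0.04, and Cebpa 0.21. Cebpb, an acute-phase factor, had 104 and 83.5 RPM and a log2 ratio of -0.32. None of these 5 was called in either direction. For Vdr, the vitamin D receptor, 0 reads were counted in MHs and 1 in SHs.

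Of the 9 proteins that work with P450 enzymes or make their haem, 1 was called lower, near the background of 9.58%, and 0 higher, beside 7.36%, with a median log2 ratio of -0.02. Por, which encodes P450 oxidoreductase, had 2999 and 5737 reads in MHs and SHs, or 177 and 135 RPM, a log2 ratio of -0.38. Cyb5a, which encodes the microsomal cytochrome b5, had 492 and 400.1 RPM, a log2 ratio of -0.30, and Cyb5r3, its reductase, 260 and 323 RPM, a log2 ratio of 0.31. Alas1, the first and rate-limiting enzyme of haem synthesis, had 422 and 429 RPM.

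Several other genes known to respond to PXR or CAR were lower in SHs. Of the 17 listed, 16 had at least 10 reads, 7 were called lower, beside 9.58% of all genes, and 0 higher, and the median log2 ratio was -0.24. The 7 were Cyp2c29 (508 RPM in MHs and 168 in SHs), Cyp2c37 (122 and 32.3), Cyp2c55 (9.19 and 4.96), the export pump genes Abcb1a (2.36 and 1.46), Abcc2 (488 and 334) and Abcc4 (0.766 and 0.165), and the aldehyde dehydrogenase gene Aldh1a1 (439 and 332). Abcc4 rested on only 13 and 7 reads and Abcb1a on 40 and 62. Over the 15 listed genes with at least 100 reads, the median log2 ratio was -0.19. Cyp2b10, the classical CAR target of the mouse, was at a low level in both, with 117 and 320 reads or 6.89 and 7.55 RPM. The log2 ratio of Ugt1a1, the bilirubin-conjugating enzyme, was -0.29, and that of Ces2a -0.07. Sult2a1 had 0 reads in both libraries, and how each listed gene is induced in these cells was not measured.

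**Figure D4:**
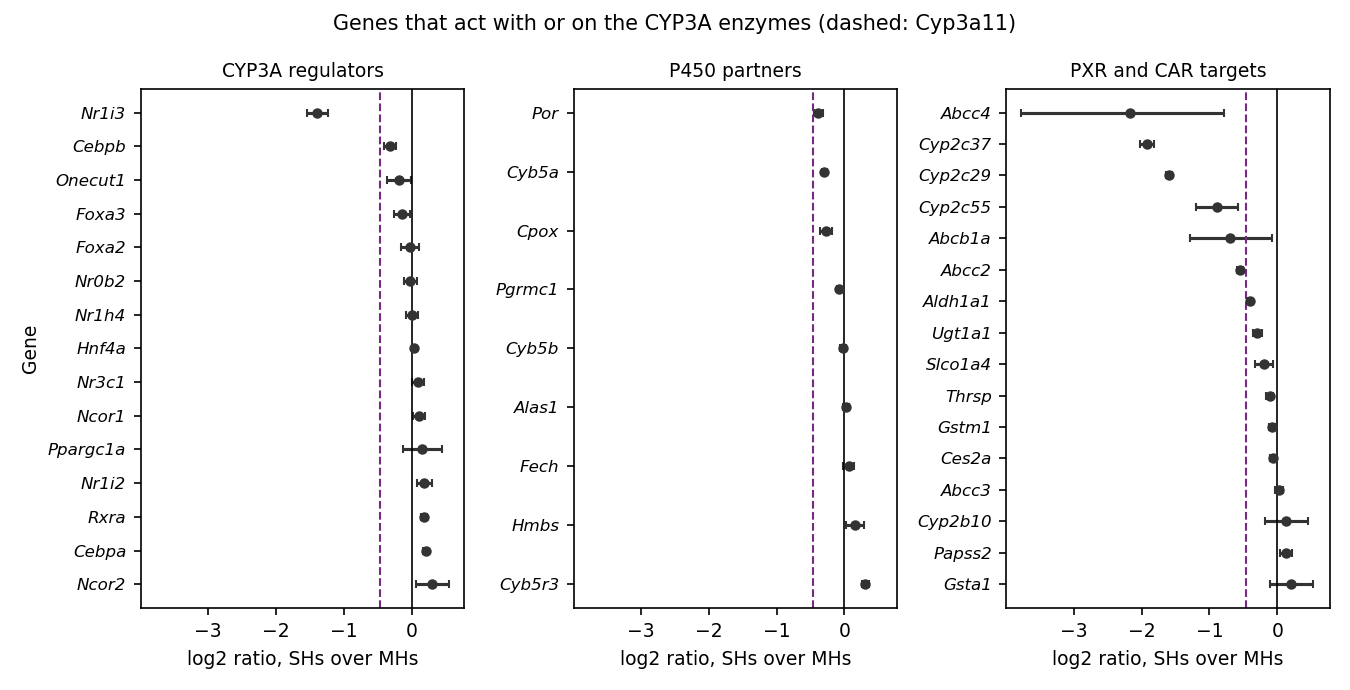
Log2 ratio of RPM in SHs over MHs for the regulators of CYP3A genes, the partners of P450 enzymes and other PXR and CAR targets with at least 10 reads, with exact 95% intervals (counting error only). The dashed line marks Cyp3a11 at -0.46. Among the regulators Nr1i3 lies apart at -1.39, and 7 of the 16 targets were called lower.

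Markers of the hepatocyte zones also differed between the libraries. All 14 pericentral markers were called lower in SHs, beside 9.58% of all genes. They summed to 3497 RPM in MHs and 1067 in SHs with a median log2 ratio of -1.82. Of the 12 periportal markers 6 were called higher, beside 7.36% of all genes, and 0 lower. They summed to 11080 and 14300 RPM with a median of 0.37. Cyp2e1, a pericentral P450 gene, had a log2 ratio of -1.89, beside -0.46 for Cyp3a11. Endothelial, macrophage and stellate cell markers were lower in SHs too, as given above. All 25 of those with at least 10 reads were called lower, beside the same 9.58%. The part of zone or of other cells in the lower level of the Cyp3a genes was not tested.

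Since some members are known as female-predominant, sex-biased liver genes were examined as well. Of the 11 female-biased genes listed, 4 had at least 10 reads, and the 11 together had 170 and 277 reads in MHs and SHs. Of the 4, Cyp2b9 and Cyp2a4 were called lower in SHs, beside the same 9.58%, from 33 reads to 22 and from 55 to 28. All 12 male-biased genes had at least 10 reads, summing to 15710 RPM in MHs and 13010 in SHs. Of these, 8 were called lower, beside 9.58% of all genes, and 1 higher, beside 7.36%, with a median log2 ratio of -0.40. For example, Hsd3b5 had a log2 ratio of -0.64, Ugt2b1 -0.63 and Slco1a1 -0.56, while Mup20 stood at 0.13. The sex of the mice cannot be told from the sources, and its part in the level of Cyp3a41a, Cyp3a41b and Cyp3a44 was not tested.

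Genes next to the members were low in both libraries. Zscan25, on 1 side of the cluster of 8, had 70 and 193 reads in MHs and SHs and a log2 ratio of 0.14 (-0.26 to 0.56), and Gm6309, on the other, had 0 in both. Next to Cyp3a13, Gjc3 had 15 and 22 reads and Pilrb2 had 0 in both. No Cyp3a pseudogene symbol was among those counted. Among the 72 genes with 1000 reads or more in each library and an RPM in MHs within 2-fold of that of Cyp3a11, the 5 closest to it in log2 ratio were Gm23849, Mgst1, Rnu2-10, Gm24950 and Snord118, at -0.47 to -0.39, and 18 of the 72 had a lower ratio than Cyp3a11. This likeness rests on 1 ratio between 2 libraries.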

How the data were processed

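Poly(A) RNA of 1 library of MHs and 1 of SHs was sequenced. For each gene symbol, the authors deposited a raw count of reads. Their methods describe trimming and alignment in CLC Genomics Workbench to mm10 and RPKM values, and the program and annotation behind the whole counts are not given in the sources used here. Reads of near-identical members may therefore have been divided, dropped or counted more than once. RPM is a count divided by the library's counted reads, times 1000000. Log2 ratios of SHs over MHs used 0.5 added reads. Intervals were exact Clopper-Pearson intervals at 95% and covered counting error only, and differences between ratios had conditional exact intervals. A gene with at least 10 reads was called lower when at least 20% lower, and higher when at least 25% higher, if its interval excluded 0. With 1 library per condition no test was possible. The calculation was tested on simulated data. Named genes were the 9 members, their neighbours, the 5 genes closest to Cyp3a11 in ratio, and listed regulators, partners, targets, sex-biased genes and markers. The members and lists were chosen with earlier results of these data known. Of the list genes, 1 hepatocyte and 1 macrophage marker were not analysed here, and 1 further listed gene is not reported here. Coordinates, coding bases and transcripts came from GENCODE M21 on mm10 and promoters from RefSeq (GRCm38.p6). Python 3.11.15, numpy 2.4.6, pandas 2.3.3, scipy 1.17.1 and Biopython 1.88 were used. Alternatives were scaling by edgeR 4.0.16 (TMM) and DESeq2 1.42.0 (size factors) in R 4.3.3, a total that leaves out the 10 most abundant genes, 2 added reads, and other sums, folds and read minimums. Sums of the close relatives and stretches with up to 2 mismatches were chosen after seeing the data.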

Additional observations from a re-analysis of the deposited data

How the results depend on the processing

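The log2 ratio of the Cyp3a sum, -0.40, was -0.39 with scaling by TMM and by DESeq2's size factors, and -0.37 with a total that leaves out the 10 most abundant genes. It was -0.17 without Cyp3a11 and -0.45 without Cyp3a25, and the sums chosen after seeing the data gave -0.46 (Cyp3a16, Cyp3a41a, Cyp3a41b and Cyp3a44) and -0.16 (Cyp3a25, Cyp3a57 and Cyp3a59). Of the 36 recomputed ratios of single members, 35 moved by less than counting error, and that of Cyp3a11 was -0.43 with the latter. At least 1.5-fold lower was 1 member, Cyp3a41a, against 6.2% of all genes, and at least 2-fold lower were 0, against 4.46%. Without division by length the share of Cyp3a11 was 80.3% in MHs and 76.9% in SHs, and with it 78.4% and 74.8%. The median of the female-biased genes, -1.36, was 0.42 with at least 100 reads, where 1 gene, Cyp17a1, was left. No paired analysis was possible because each condition had a single library, so the intervals show counting error and no spread between mice.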
